A study of Mus musculus with 44 samples.

Results

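Solute carriers are membrane proteins that move sugars, amino acids, neurotransmitters, ions, vitamins and metals across the plasma membrane and the membranes of vesicles and organelles. In the hippocampus, carriers of neurons load glutamate, GABA and zinc into synaptic vesicles and set the chloride gradient. Carriers of astrocytes clear glutamate from the extracellular space, and carriers of the vessel wall and choroid plexus bring glucose, amino acids and vitamins into the brain. The carriers described here are the loci of the deposited table with 1 gene symbol that begins with Slc and a number, leaving out the mitochondrial Slc25a genes and Slc7a1, Slc7a5 and Slc3a2, with a mean of at least 1 FPKM over all libraries. FPKM (fragments per kilobase of transcript, scaled to the library's mapped fragments) are divided by length, so levels of different genes are given per length.

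By this rule 133 of 13218 loci were carriers, with 131 symbols from 40 families. Another 2 carriers, Slc4a5 at a mean of 0.347 FPKM and Slc9a9 at 0.453 FPKM, lay below the minimum, and the 3 carriers just above it were Slc31a2 at 1.03 FPKM, Slc6a13 at 1.28 FPKM and Slc39a13 at 1.33 FPKM. A further 23 loci that merge a carrier with another gene were not used. The rule goes by name, so the set is wider than the plasma membrane and synaptic vesicles. It holds nucleotide sugar carriers of the Golgi and endoplasmic reticulum (Slc35, the largest family with 16 loci), lysosomal carriers, and 3 loci that are named after a carrier but are not carriers themselves (Slc9a3r1, Slc9a3r2 and Slc7a6os). The symbol Slc1a1 stands on 2 loci, called locus 1 (the higher) and locus 2, and how reads were shared between them is not known, so the level of either is uncertain.

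The libraries are of total RNA from the hippocampus of 44 C57BL/6J mice of 5, 15 or 18 months. At each age 1 group is labelled CD and 1 MR, and the title of the series gives MR as methionine restriction. There were 6 libraries of 5M-CD, 7 of 5M-MR, 8 each of 15M-CD, 15M-MR and 18M-CD, and 7 of 18M-MR. The labels do not give sex, when the diet began, or what the CD diet holds. The design asks what the diet does at each age and what age does under each diet. Each library is taken as 1 mouse, as the design text counts them.

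Several features of the libraries moved with the groups. Depth is unknown, because FPKM hold no counts. Totals of FPKM over all loci ran from 213116 to 282327. The share of that sum in loci without a gene symbol ran from 3.30% to 12%. It was 4.20% ± 0.617 (SD, n = 7) in 5M-MR and 7.43% ± 2.84 (SD, n = 7) in 18M-MR, and 3 of the 6 libraries above 8% were 18M-MR. Lanes were uneven over groups, with all 8 libraries of 15M-MR on lane 4 and none of 18M-MR there. The summed level of 6 neuron markers had a median of 822 FPKM in 5M-CD, 830 FPKM in 5M-MR, 610 FPKM in 18M-CD and 525 FPKM in 18M-MR. Of these markers 4 (Syt1, Gad2, Camk2a and Gad1) were lower at 18 than at 5 months, while 3 of 6 microglia markers (C1qa, C1qb and Tmem119) were higher. Of 7 oligodendrocyte loci Mobp and Mbp were higher, with a summed median of 660 FPKM in 5M-CD, 545 FPKM in 5M-MR, 963 FPKM in 18M-CD and 791 FPKM in 18M-MR. The astrocyte marker Gfap was higher and Fgfr3 lower, and Flt1 of the endothelium was higher. Of 6 markers of hippocampal fields, named to check the tissue label, 5 were in the table, with a summed level between 44.9 and 230.0 FPKM, of which none differed with age. In bulk tissue, fewer cells of a type and less RNA per cell cannot be told apart.

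The carriers together made up from 0.403% to 0.987% of the FPKM total. Their summed level was highest in 5M-MR, with a lowest, median and highest library of 1925, 1988 and 2103 FPKM. It was 1625, 1707 and 2069 FPKM in 5M-CD. At 15 months the values were 1350, 1595 and 1849 FPKM in CD and 1432, 1643 and 1736 FPKM in MR. At 18 months they were 1008, 1524 and 1886 FPKM in CD and 960, 1460 and 1927 FPKM in MR. Each older group had a lower median than either group of 5 months. All libraries of 15M-CD, 15M-MR and 18M-CD lay below those of 5M-MR, 18M-MR overlapped 5M-MR, and all 4 older groups overlapped 5M-CD.

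One carrier stood far above the rest. Slc17a7, the vesicular glutamate transporter of excitatory neurons, had a mean of 407.9 FPKM and ranged from 162 to 633 FPKM. On its own it made up a median of 24.4% of the carriers' summed level. Slc22a17, a receptor for the iron-binding protein lipocalin 2, followed at 157.1 FPKM, and Slc1a2, the main glutamate transporter of astrocytes, at 74.2 FPKM. Other carriers at high levels were Slc48a1 (51.3 FPKM, a heme carrier), Slc8a2 (41.1 FPKM, sodium-calcium exchange), Slc1a3 (37.9 FPKM, glutamate uptake by astrocytes), Slc24a3 (36.0 FPKM, potassium-dependent sodium-calcium exchange), Slc30a3 (30.9 FPKM, zinc loading of vesicles) and Slc2a1 (29.4 FPKM, the glucose transporter of the vessel wall). Only 13 of the 133 loci had a mean of at least 20 FPKM, and 65 had at least 5 FPKM.

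**Figure D1:**
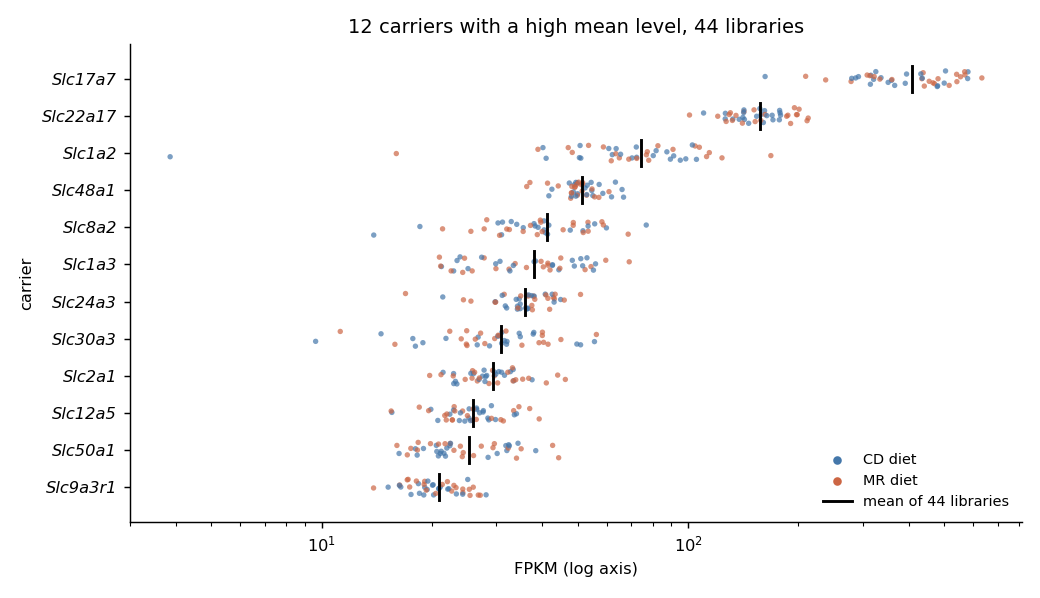
FPKM (log axis) of 12 carriers with a high mean in each of 44 libraries, coloured by diet, with a black line at the mean. Slc17a7 lies above the other carriers, and Slc1a2 has the lowest single library of the 12, at 3.86 FPKM.

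Carriers differed in how steady they were among mice of 1 group. Among carriers of at least 5 FPKM, the SD of log2(FPKM + 1) within groups was smallest for Slc35f6 at 0.13, followed by Slc35b1, Slc48a1, Slc27a4 and Slc35e4. It was largest for Slc39a10, a zinc importer, at 1.19. Slc6a9 (glycine uptake) at 0.81, Slc5a5 at 0.78, Slc1a2 at 0.76 and Slc2a6 at 0.65 came next. The SD of Slc1a2 takes in library 6 of 15M-CD at 3.86 FPKM, where the rest of that group ran from 41.0 to 103 FPKM. For Slc39a10, libraries of 5M-CD ranged from 0.973 to 11.6 FPKM and those of 18M-MR from 0.0441 to 8.25 FPKM, so values near 0 and values near the group's top stood in the same group. Of the 133 loci, 27 were listed at 0 in at least 1 library, led by Slc31a2 in 29 libraries, Slc46a1 in 20, Slc8a3 in 14, and Slc15a4 and Slc30a4 in 13 each. Where a locus of several FPKM elsewhere in its group is listed at 0, the value may be a failed estimate, which cannot be told apart from absence.

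No carrier was called as different between MR and CD. With limma on log2(FPKM + 1) and Benjamini-Hochberg adjustment over all 13009 loci tested, 0 of 133 carriers passed an adjusted p of 0.05 at 5 months, 15 months, 18 months or averaged over ages, as did 0% of all loci in each of these comparisons. At an unadjusted p under 0.05 there were 12, 8, 10 and 8 carriers, beside 600, 295, 610 and 329 of the 13009 loci. The carriers' median difference was 0.115, -0.0635, -0.136 and -0.0223 in that order, beside -0.0229, 0.00773, -0.0317 and -0.00957 over all loci. At 5 months 95 of the 133 carriers lay above 0. Below 0 lay 86 at 15 months, 99 at 18 months and 76 averaged over ages. These shifts of the whole set were not tested. The test of a diet difference that changes with age also called 0 carriers and 0% of all loci. At an unadjusted p under 0.05 it had 9 carriers, beside 540 loci. With array weights, which let limma weigh libraries unequally, 7 carriers were called at 5 months, where 3.12% of all loci were called, and 2 in the test of a changing difference, where 0.177% were.

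The carriers with the smallest p for diet were these. Slc36a4, an amino acid carrier, had a lowest, median and highest library of 3.61, 6.13 and 6.48 FPKM in 5M-CD and 0.0697, 0.579 and 6.42 FPKM in 5M-MR. Of the 7 libraries of 5M-MR, 4 lay under 1 FPKM and the other 3 within or near the range of CD, and the difference was -1.32 ± 0.43 (SE) with an adjusted p of 0.937. Slc38a3, a glutamine carrier of astrocytes, had 8.36, 11.6 and 13.3 FPKM in 18M-CD and 5.55, 7.79 and 9.89 FPKM in 18M-MR. The 2 groups overlapped, and the difference was -0.49 ± 0.13 (SE) with an adjusted p of 0.452. At 15 months the smallest p was that of Slc30a5, a zinc carrier of the secretory pathway, with a difference of -0.88 ± 0.32 (SE). It had a lowest, median and highest library of 0.587, 3.63 and 4.58 FPKM in 15M-CD and 0.00695, 0.903 and 3.94 FPKM in 15M-MR, and the groups overlapped widely. The other carriers among the 3 smallest p were Slc7a14 (0.85 ± 0.31) and Slc37a4 (-0.71 ± 0.26) at 5 months, Slc39a5 (1.10 ± 0.41) and Slc6a17 (0.71 ± 0.28) at 15 months, and Slc22a8, an organic anion carrier (-1.07 ± 0.35), and Slc48a1 (-0.28 ± 0.09) at 18 months. Averaged over ages they were Slc36a4 (-0.76 ± 0.23), Slc30a2 (0.52 ± 0.22) and Slc35a5 (-0.43 ± 0.19). None of these passed the adjusted threshold.

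Carriers of methionine and of amino acid shortage were listed apart because the diet limits an amino acid. The list of methionine and large neutral amino acid carriers holds 11 genes, of which 5 are members here. Of these, 0 of 5 passed the test for diet at any age. Slc7a1, Slc7a5 and Slc3a2 are outside the rule, so the counts given here do not cover them. Slc7a8 (LAT2, an exchanger of large neutral amino acids) differed between MR and CD by 0.04 ± 0.10 (SE) on the log2 scale averaged over ages, Slc38a2 (SNAT2, system A) by -0.09 ± 0.10, and Slc6a15 (a neuronal carrier of branched-chain amino acids and methionine) by -0.09 ± 0.09. Slc43a2 differed by -0.18 ± 0.24 and Slc6a20a, a proline carrier, by 0.12 ± 0.23. Genes of the other list are known from cultured cells to be induced by the factor Atf4 when amino acids run short. Of the 6 genes on that list 3 are members, Slc1a4 (-0.02 ± 0.09), Slc38a2 and Slc6a9 (-0.45 ± 0.24). These also did not pass, 0 of 3 at every age. For each of these members the interval of 2 SE around the difference averaged over ages took in 0.

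Most carriers called with age were lower. Averaged over diets, 50 of 133 carriers were lower at 18 than at 5 months and 0 were higher. Over all loci 35.9% were called in this comparison, 17.1% lower, so the carriers' share called (37.6%) was near the share of all loci, and their share called lower was above it. The median difference was -0.35 over carriers and -0.07 over all loci on the log2 scale, and 112 of the 133 lay below 0. Called falls ran from -0.17 for Slc35f6 to -1.08 for Slc19a1, with a median of -0.50. Between 15 and 5 months 23 carriers were lower and 0 higher, where 19.6% of all loci were called and 6.93% were lower. These falls ran from -0.24 for Slc20a2 to -1.06 for Slc19a2. The comparisons of 15 and of 18 with 5 months share the libraries of 5 months, so their carriers are not independent of each other. From 15 to 18 months 1 carrier was lower, Slc27a3, a fatty acid carrier and acyl-CoA synthetase, where 0.4% of all loci were called and 0.2% were lower.

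Within each diet the counts were unequal. In MR 24 carriers were lower and 1 higher at 15 than at 5 months, where 18.3% of all loci were called, 6.46% lower and 11.9% higher. At 18 against 5 months in MR 44 were lower and 1 higher, where 29.3% of all loci were called, 14% lower and 15.3% higher. In CD 0 carriers were called at 15 against 5 months (0.292% of all loci) and 0 at 18 against 5 months (0.231% of all loci). At an unadjusted p under 0.05 there were 16 and 25 carriers, beside 1070 and 2192 of 13009 loci. From 15 to 18 months 0 carriers were called in CD (0.0769% of all loci) and 0 in MR (0.131% of all loci). Unadjusted there were 4 and 17 carriers, beside 861 and 964 loci. The carriers' median difference at 18 against 5 months was -0.19 in CD and -0.50 in MR, beside -0.02 and -0.09 over all loci. The test of the difference between diets called no carrier, as above, so the age difference was not shown to depend on diet. The F test over all 6 groups called 25 carriers and 12.7% of all loci.

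**Figure D2:**
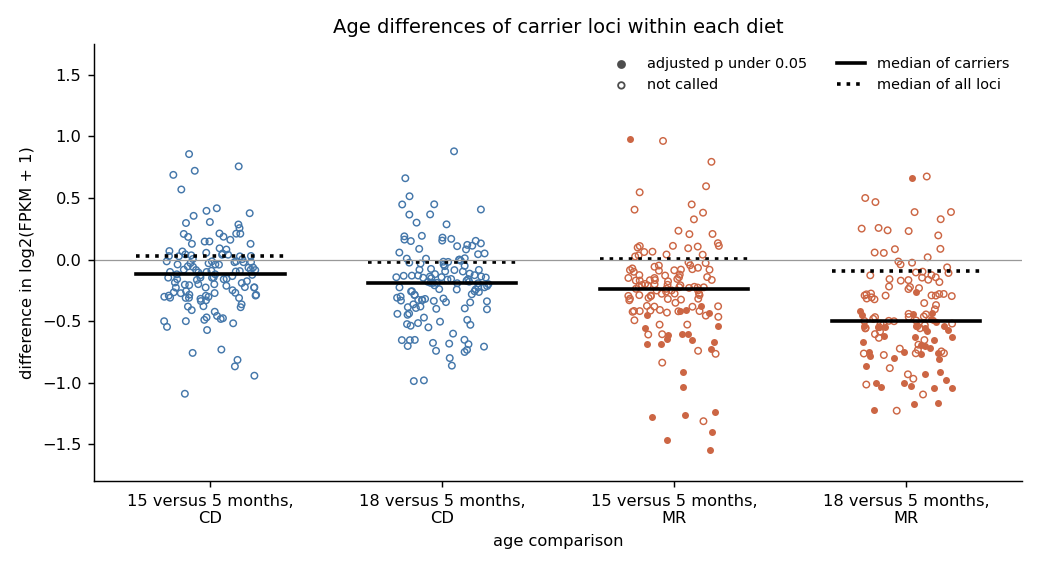
Difference in log2(FPKM + 1) of each of 133 carrier loci at 15 and 18 against 5 months within CD (blue) and MR (orange), with filled points past an adjusted p of 0.05 and lines at the median of the carriers (solid) and of all loci (dotted). The carriers' median lies below that of all loci in each comparison, and filled points stand only in the MR comparisons.

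The carriers with the smallest p within MR were largely those named for the averaged comparison, which contains the same libraries. At 18 against 5 months the differences in MR were -0.77 ± 0.14 (SE) for Slc41a1, and -0.65 ± 0.13 and -1.03 ± 0.20 for the loci of Slc1a1. Slc24a2 (-1.02 ± 0.22), Slc6a6 (-0.91 ± 0.21), Slc35e4 (-0.54 ± 0.12) and the phosphate carrier Slc20a2 (-0.54 ± 0.12) were also among the smallest p. At 15 against 5 months in MR the falls with the smallest p included those of Slc19a1 (-1.46 ± 0.41), Slc30a5 (-1.26 ± 0.33), Slc6a6 (-0.72 ± 0.20), Slc1a1 locus 2 (-0.68 ± 0.19), Slc7a8 (-0.67 ± 0.17), Slc6a8 (-0.54 ± 0.14) and Slc12a5 (-0.45 ± 0.12). In CD the smallest p at 15 against 5 months were those of Slc19a2 (-1.09 ± 0.31), Slc6a17 (-0.87 ± 0.31) and Slc7a8 (-0.50 ± 0.18), and at 18 against 5 months those of Slc6a15, Slc38a3 (0.45 ± 0.14) and Slc23a2 (-0.60 ± 0.19), none past the threshold. From 15 to 18 months they were Slc35b1 (-0.24 ± 0.09), Slc27a3 (-0.71 ± 0.28) and Slc4a4 (-0.64 ± 0.26) in CD and Slc27a3 (-1.10 ± 0.29), Slc26a4 (-0.91 ± 0.25) and Slc22a8 (-1.25 ± 0.35) in MR, again none past it.

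Averaged over diets, several carriers were lower by a like amount at 15 and at 18 months against 5. Slc6a8 was lower by -0.45 ± 0.10 (SE) at 15 months, Slc6a6 by -0.60 ± 0.14, Slc12a5 by -0.33 ± 0.09 and Slc30a5 by -0.82 ± 0.24. The carriers with the smallest p in the test over all 6 groups included both loci of Slc1a1, Slc41a1, Slc7a8, Slc19a2, Slc27a3 and Slc23a2.

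The falls averaged over diets that held under the most settings included those of carriers of magnesium, large neutral amino acids and glutamate. Slc41a1, a magnesium carrier at chr1:131827493-131848865 on the plus strand (GRCm38, GENCODE M21), had a lowest, median and highest library of 7.82, 10.02 and 13.4 FPKM in 5M-CD and 10.3, 11.5 and 13 FPKM in 5M-MR. At 15 months it had 7.31, 8.52 and 9.61 FPKM in CD and 7.33, 8.23 and 9.40 FPKM in MR. At 18 months it had 4.42, 7.62 and 9.85 FPKM in CD and 4.15, 6.27 and 10.8 FPKM in MR. All 8 libraries of 15M-MR and 6 of 7 of 18M-MR lay below every library of 5M-MR. The fall from 5 to 18 months averaged over diets was 0.57 on the log2 scale, as a difference of -0.57 ± 0.10 (SE), with an adjusted p of 0.000298 in limma.

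Slc7a8, on the minus strand at chr14:54722209-54781946 (GRCm38), had 20.1, 21.2 and 29.1 FPKM in 5M-CD and 21.1, 25.6 and 30.9 FPKM in 5M-MR. At 15 months it had 12.5, 15.8 and 21.9 FPKM in CD and 11.2, 15.4 and 20.8 FPKM in MR, and 7 of 8 libraries of 15M-CD and all 8 of 15M-MR lay below every library of 5 months on their diet. At 18 months it had 9.57, 14.5 and 22.6 FPKM in CD and 8.39, 15.8 and 26.3 FPKM in MR. The difference was -0.59 ± 0.12 (SE) at 15 months and -0.63 ± 0.13 (SE) at 18 months averaged over diets, with adjusted p of 0.00181 and 0.00102 in limma.

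Slc1a1 encodes the neuronal glutamate and cysteine transporter EAAC1, at chr19:28835049-28913960 on the plus strand (GRCm38). Locus 1 had 14.2, 15.6 and 18.2 FPKM in 5M-CD and 16.9, 17.9 and 18.7 FPKM in 5M-MR. At 15 months it had 13.3, 14.3 and 15.6 FPKM in CD and 10.8, 13.2 and 14.3 FPKM in MR. At 18 months it had 6.53, 13.5 and 16.3 FPKM in CD and 7.09, 10.7 and 15.8 FPKM in MR. All 7 libraries of 18M-MR lay below every library of 5M-MR, while 18M-CD overlapped 5M-CD. The difference between 18 and 5 months was -0.52 ± 0.09 (SE) for locus 1 and -0.65 ± 0.14 (SE) for locus 2, with adjusted p of 0.000481 and 0.00173 in limma.

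**Figure D3:**
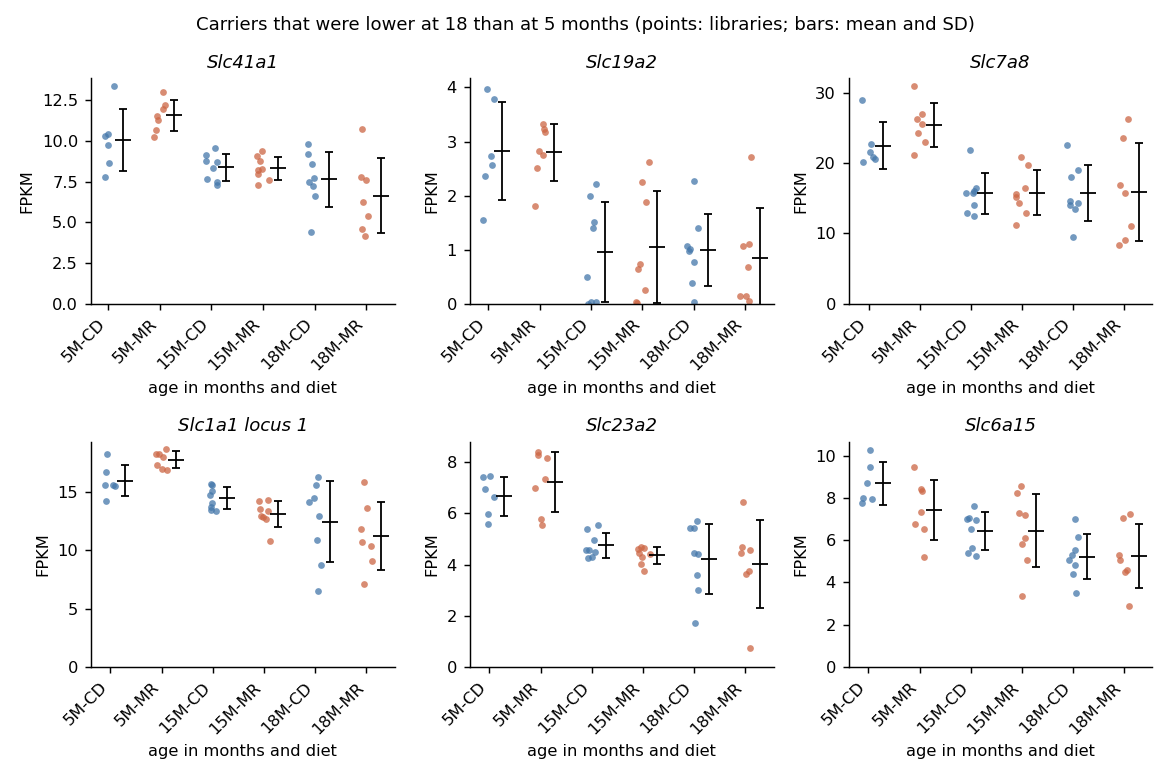
FPKM of 6 carriers in each library by age and diet (CD blue, MR orange), with the mean and SD of each group beside the points. For Slc41a1, Slc7a8 and Slc23a2 the groups of 15 and 18 months have lower means than both groups of 5 months, with overlap at 18 months.

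Averaged over diets, the falls of Slc41a1, Slc7a8 and Slc1a1 locus 1 at 18 months were called under every setting in which they were tested. For this reason the sequences before the starts of these genes are shown. They are the 250 bases before a transcript start in RefSeq on GRCm38.p6, on the gene's own strand, with capitals at GC boxes (GGGCGG on either strand, a site of the factor Sp1). The region of Slc41a1 is chr1:131827762-131828011, that of Slc7a8 is chr14:54781887-54782136, and that of Slc1a1 is chr19:28834885-28835134. The RefSeq starts differ from the ends of the GENCODE gene spans given above, so the window of Slc41a1 lies within its span, and those of Slc7a8 and Slc1a1 reach into theirs.
Slc41a1: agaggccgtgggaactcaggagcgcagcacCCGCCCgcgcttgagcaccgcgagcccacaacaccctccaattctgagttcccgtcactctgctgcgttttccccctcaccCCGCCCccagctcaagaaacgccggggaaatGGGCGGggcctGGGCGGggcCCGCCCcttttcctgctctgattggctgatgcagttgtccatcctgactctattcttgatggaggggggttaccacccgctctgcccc
Slc7a8: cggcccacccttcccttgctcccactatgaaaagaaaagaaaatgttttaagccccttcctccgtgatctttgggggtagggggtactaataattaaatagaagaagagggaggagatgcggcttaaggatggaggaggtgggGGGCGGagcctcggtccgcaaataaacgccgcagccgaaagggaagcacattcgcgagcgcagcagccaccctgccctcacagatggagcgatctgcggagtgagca
Slc1a1: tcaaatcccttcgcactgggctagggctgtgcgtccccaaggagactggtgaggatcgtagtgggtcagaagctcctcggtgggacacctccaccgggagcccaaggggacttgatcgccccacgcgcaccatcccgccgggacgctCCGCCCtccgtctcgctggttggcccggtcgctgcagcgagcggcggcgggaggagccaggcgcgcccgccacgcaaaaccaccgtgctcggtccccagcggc
Slc41a1 has 5 GC boxes in this window, and Slc7a8 and Slc1a1 have 1 each. A promoter was found for 106 of the 131 symbols, 144 promoters in all. A GC box stood in 59% of these, in 59% of the promoters of all loci tested, and in 32.7% of all 32851 promoters, so the share in carriers was that of the loci tested. The motif TGACGTCA, the cyclic AMP response element, stood in 0 promoters of carriers and 2.75% of those of the loci tested, and TGATGCAA, a core of the amino acid response element, stood in 1, that of Slc50a1. Both strands were searched for each motif, and a match is a description of the letters, not a site in use.

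Further carriers of vitamins and amino acids fell. Slc23a2, the sodium-dependent vitamin C transporter of neurons, had 5.58, 6.78 and 7.45 FPKM in 5M-CD and 5.56, 7.32 and 8.41 FPKM in 5M-MR as lowest, median and highest. It had 4.24, 4.55 and 5.55 FPKM in 15M-CD and 3.76, 4.44 and 4.70 FPKM in 15M-MR, so that the groups of 15 months lay wholly below those of 5 months on the same diet. The difference at 15 months was -0.51 ± 0.13 (SE) with an adjusted p of 0.0072 in limma, and at 18 months it was -0.70 ± 0.13 (SE). Slc19a2, a thiamine transporter, was lower by -1.06 ± 0.22 (SE) at 15 months and -1.08 ± 0.22 (SE) at 18 months, from medians of 2.65 and 2.82 FPKM at 5 months to 0.999 and 0.674 FPKM at 18 months in CD and MR. These are low levels, where log2(FPKM + 1) understates a fold. Slc19a1, the reduced folate carrier, and Slc52a2, a riboflavin transporter, were also lower at 18 months, by -1.08 and -0.73. Slc19a1 ranged from 0.140 to 4.19 FPKM in 5M-CD and from 1.25 to 4.02 FPKM in 5M-MR. It ranged from 0.0014 to 3.04 FPKM in 15M-MR, 0 to 2.20 FPKM in 18M-CD and 0 to 3.39 FPKM in 18M-MR. Of these groups all but 5M-MR held values near 0 beside higher ones, so its falls are uncertain in size. Of 7 loci for nucleosides and vitamins, 4 were lower and 0 higher, with a list median of -0.70.

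Slc6a15 came nearest to a call in CD alone. It had 7.75, 8.37 and 10.3 FPKM in 5M-CD and 3.52, 5.16 and 6.99 FPKM in 18M-CD, so that all 8 libraries of 18M-CD lay below every library of 5M-CD. The difference in CD was -0.65 ± 0.15 (SE), with an adjusted p of 0.0508 in limma, just over the threshold. In MR it had 5.19, 7.31 and 9.43 FPKM at 5 months and 2.89, 5.08 and 7.23 FPKM at 18 months, a difference of -0.45 ± 0.15 (SE). Of the 5 carriers of methionine and large neutral amino acids 3 were lower at 18 months averaged over diets (Slc7a8, Slc6a15 and Slc38a2 at -0.45 ± 0.12). Slc43a2 (-0.04) and Slc6a20a (-0.60 ± 0.29) did not pass, and the list median was -0.55.

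For neurotransmitter carriers, as for the other lists, the share of all loci lower at 18 months averaged over diets was 17.1%. Of 6 vesicular loaders 2 were lower, Slc17a7 (-0.41 ± 0.15) and Slc6a17 (-0.55 ± 0.22, a vesicular carrier of neutral amino acids). Slc17a7 had 321, 371 and 580 FPKM in 5M-CD, 434, 541 and 569 FPKM in 5M-MR, 162, 373 and 579 FPKM in 18M-CD and 209, 313 and 633 FPKM in 18M-MR. The medians of the CD groups were close, and the lowest library stood in 18M-CD. Slc32a1, which loads GABA and glycine, had a difference of -0.34 ± 0.16 and Slc30a3 of -0.42 ± 0.19, neither past the threshold. Slc17a6 (0.16), found in few hippocampal neurons, and the polyamine carrier Slc18b1 (0.21) did not pass either.

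Of the 5 loci for glutamate uptake 4 were lower at 18 months. Besides Slc1a1, the astrocyte carriers Slc1a2 (-0.69 ± 0.28, adjusted p = 0.047 in limma) and Slc1a3 (-0.47 ± 0.16) passed. Slc1a2 had 50.7, 90.4 and 105 FPKM in 5M-CD, 64.9, 107 and 168 FPKM in 5M-MR, 40.2, 64.5 and 98.5 FPKM in 18M-CD and 16.0, 53.5 and 124 FPKM in 18M-MR. Its groups overlapped widely. Slc1a6, known from Purkinje cells, had 0.26 and did not pass. Of the 6 loci for uptake of GABA, glycine, taurine and creatine 4 were lower, among them the astrocyte GABA carrier Slc6a11 (-0.45 ± 0.16), the taurine carrier Slc6a6 (-0.63 ± 0.15) and the creatine carrier Slc6a8 (-0.45 ± 0.10). Slc6a9 (-0.46 ± 0.29) and Slc6a13 (0.22 ± 0.22) did not pass.

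Ion carriers were counted by family, beside 17.1% of all loci lower at 18 months, and differences between families were not tested. Of 4 cation-chloride cotransporters 2 were lower, among them Slc12a5 (KCC2, which keeps chloride low in mature neurons) by -0.35 ± 0.09. Slc12a2 (NKCC1, which brings chloride in) had 0.04 ± 0.16 and Slc12a9 0.10 ± 0.15, neither past the test. Slc12a5 had medians of 28 and 33.4 FPKM at 5 months and 24.6 and 23.1 FPKM at 18 months in CD and MR. Of 5 loci for sodium-calcium exchange 3 were lower, Slc24a2 (-0.73 ± 0.16), Slc24a3 (-0.34 ± 0.09) and Slc8a2 (-0.44 ± 0.16). Of 6 bicarbonate carriers 4 were lower, Slc4a4 of astrocytes (-0.79 ± 0.20), Slc4a10 of neurons (-0.61 ± 0.16), Slc4a8 (-0.48 ± 0.16) and Slc4a7 (-0.31 ± 0.12). None of the 6 sodium-proton exchangers was called, and their list median was -0.16.

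Metal and sugar carriers also included some that were lower. Of 15 zinc carriers 5 were lower at 18 months, where 17.1% of all loci were lower, with Slc39a6 (-0.98 ± 0.23), Slc30a5 (-0.73 ± 0.24) and Slc30a9 (-0.40 ± 0.09) as examples. Of 5 carriers of iron, copper and magnesium Slc41a1 alone was lower. Of 5 carriers of glucose and monocarboxylates 2 were lower, Slc2a13 (-0.47 ± 0.15, a proton-myo-inositol carrier) and Slc16a1 (-0.29 ± 0.11, the lactate carrier MCT1), while Slc2a1 had -0.19 ± 0.10 and did not pass. Of 8 nucleotide sugar carriers 2 were lower, Slc35b4 (-0.42 ± 0.15) and Slc35a5 (-0.65 ± 0.24). The 3 loci for monoamines and choline had 0 calls at 18 months averaged over diets, and 1 of them was lower in MR alone.

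By the cell type a carrier is best known from, 9 of 14 neuronal loci, 4 of 10 astrocyte loci and 3 of 5 endothelial loci were lower at 18 months. Of the 3 oligodendrocyte, 4 choroid plexus and 2 meningeal loci none was called in either direction in this comparison, though 1 choroid plexus locus was lower in MR alone. No carrier listed for microglia was among the members. The list medians were -0.43, -0.31, -0.50, -0.01, -0.36 and 0.12 in that order, beside -0.07 over all loci. Most of these carriers are made by more than 1 cell type. The neuron markers that were lower at the same time are given above, and their part in these falls was not tested.

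In the 6-group fit Slc37a4 was the only carrier called higher with age, in MR. At 15 against 5 months in MR 4 carriers were higher with array weights and 3 without the libraries above 8%. There were 2 each with a pseudocount of 0.1 and with the share without a symbol as a covariate. Of 13009 loci, 2771, 1890, 1800 and 753 were higher in that order. Averaged over diets 2 were higher at 15 months with array weights and 1 with that covariate, beside 2725 and 1269 loci. At 18 against 5 months in CD 2 were higher with array weights, beside 891 loci. With the length trend removed 1 was, beside 54 of 8705 loci. Slc37a4 encodes the carrier that brings glucose-6-phosphate into the endoplasmic reticulum. In MR it had 0.524, 1.40 and 2.29 FPKM at 5 months, 2.20, 2.92 and 5.93 FPKM at 15 months and 1.20, 2.18 and 5.28 FPKM at 18 months as lowest, median and highest. All but the lowest library of 15M-MR lay above the group of 5 months. The difference in MR was 0.98 ± 0.25 (SE) at 15 months and 0.66 ± 0.25 (SE) at 18 months, with adjusted p of 0.00768 and 0.0438 in limma. In CD it had 2.11, 2.27 and 3.97 FPKM at 5 months and 0.650, 1.73 and 3.01 FPKM at 18 months, a difference of -0.54 ± 0.26 that did not pass. The test of a diet difference that changes with age gave it the smallest p among carriers, 0.00162, with an adjusted p of 0.968, so it was not called, and 5M-MR was the lowest of the 6 groups by mean.

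Slc27a3 was the carrier called from 15 to 18 months, with a difference of -0.91 ± 0.20 (SE) averaged over diets and an adjusted p of 0.0222 in limma. It had 0, 2.01 and 2.65 FPKM in 15M-CD, 1.93, 3.03 and 3.86 FPKM in 15M-MR, 0, 0.580 and 2.96 FPKM in 18M-CD and 0, 0.964 and 2.35 FPKM in 18M-MR. It was listed at 0 in 8 of 44 libraries. The call was lost when library 2 or 7 of 18M-MR was left out, with adjusted p up to 0.056, and under 7 of 11 other settings.

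With rises and falls pooled, the share of FPKM in loci without a symbol moved with fewer of the carriers than of all loci. Falls alone were more frequent among carriers, and neither difference was tested. Within groups, 40 carriers fell and 6 rose as this share rose. These were 34.6% of the carriers, with 30.1% lower, where 49.4% of all loci were called, 25.7% lower and 23.8% higher. The median slope per percentage point was -0.055 over carriers and -0.017 over all loci. Among the steepest falls per percentage point of the share were those of Slc15a4 (-0.39), Slc35f4 (-0.29), Slc35a5 (-0.26), Slc2a8 (-0.24), Slc1a2 (-0.24), Slc33a1 (-0.22) and Slc1a3 (-0.20). The rises were those of Slc7a6os (0.24), Slc39a5 (0.24), Slc16a6 (0.18), Slc6a13 (0.14), Slc4a3 (0.12) and Slc45a1 (0.08). Carriers called with age include Slc1a2, Slc1a3 and Slc35a5 of the first group.

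With that share as a covariate, calls over all loci went from 4669 to 160 of 13009. Of the carriers' 50 falls from 5 to 18 months 5 held, among them those of Slc41a1 (-0.38), Slc7a8 (-0.55) and Slc1a1 locus 1 (-0.29). The adjusted p of these in limma lay between 0.0217 for Slc41a1 and 0.0433 for Slc7a8. The carriers' median difference was -0.21 in place of -0.35. In MR alone 0 of the 45 calls held, and 0 held without the 6 libraries above 8%, while 24 of the 25 calls at 15 months in MR held without them. Over all loci the calls at 18 months in MR went from 3816 to 25 with the covariate and 23 without these libraries. Those at 15 months in MR went from 2387 to 2792 without these libraries. Of the 23 falls from 5 to 15 months 10 held with the covariate, where calls over all loci went from 2551 to 1773. The share rises from 5M-MR to 18M-MR, so it and age cannot be told apart fully in MR.

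**Figure D4:**
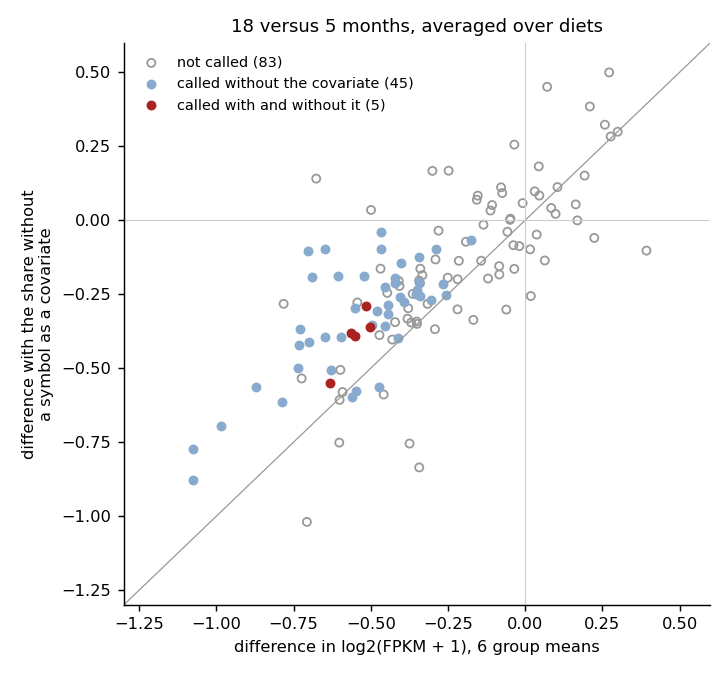
Difference in log2(FPKM + 1) between 18 and 5 months averaged over diets for 133 carrier loci, from 6 group means (x axis) and with the share of FPKM in loci without a symbol as a covariate (y axis), with a line of equality. Most of the 50 called carriers lie above the line, nearer to 0 with the covariate, and 5 (red) are called in both.

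Transcript length and lane moved with the falls as well. The carriers' longest transcripts had a median of 3882 bases, against 3321 bases for 8705 loci with a length. Among the shortest loci, with loci divided evenly into 3 by length, the median difference from 5 to 18 months in MR was -0.05 over loci and -0.16 over 19 carriers. Among the longest it was -0.36 over loci and -0.55 over 49 carriers. With each library's trend on length removed, 16 of the 50 falls from 5 to 18 months held. Of the 8705 loci 1104 were then called, 463 of them lower. With lane as a factor 43 of the 50 falls to 18 months held, where 5153 of 13009 loci were called. Of the 23 falls from 5 to 15 months only 6 held, where 193 loci were called. Of the 25 calls in MR at 15 months 0 held, where 14 loci were called. All libraries of 15M-MR share a lane with 1 of 5M-CD and 3 of 15M-CD. The groups 5M-CD (lanes 1 and 4) and 18M-CD (lanes 2 and 3) share no lane. In 18M-MR only library 2 is on a lane of 5M-MR, lane 1. Lane and the age step from 5 to 18 months can thus hardly be told apart within a diet. Averaged over diets, some falls were called under every setting in which they were tested. These included the falls of Slc41a1, Slc7a8 and Slc1a1 locus 1 at 18 months and of Slc7a8 and Slc23a2 at 15 months. In MR alone, 0 of the calls at 15 or at 18 against 5 months held under all settings.

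A separate pattern within groups followed Ttr, the transcript of choroid plexus epithelium, which ranged from 7.72 to 4910 FPKM. Across all loci 0.53% were called, 0.484% rising and 0.0461% falling with Ttr. Among carriers 3 rose and 0 fell. Slc13a4, a sulfate carrier, rose by 0.23 ± 0.03 (SE) per log2 step of Ttr, Slc31a1, the copper importer, by 0.14 ± 0.03, and Slc12a2 by 0.10 ± 0.02, with adjusted p of 1.69e-05, 0.000925 and 0.0372 in limma. Libraries stood in clusters, 33 at up to 258 FPKM of Ttr and 11 at 805 FPKM or more. Slc13a4 had 0.173, 0.536 and 5.07 FPKM as lowest, median and highest of the 33 and 1.48, 2.81 and 5.00 FPKM of the 11. Slc31a1 had 0.296, 2.94 and 3.81 FPKM of the 33 and 3.11, 4.39 and 7.94 FPKM of the 11. The ranges overlapped for each of them. The call of Slc12a2 was lost when any of 9 single libraries was left out, with adjusted p up to 0.134. Other carriers of the choroid plexus list, Slc4a2 and Slc29a4, were not called, and none of the 3 differed with age.

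**Figure D5:**
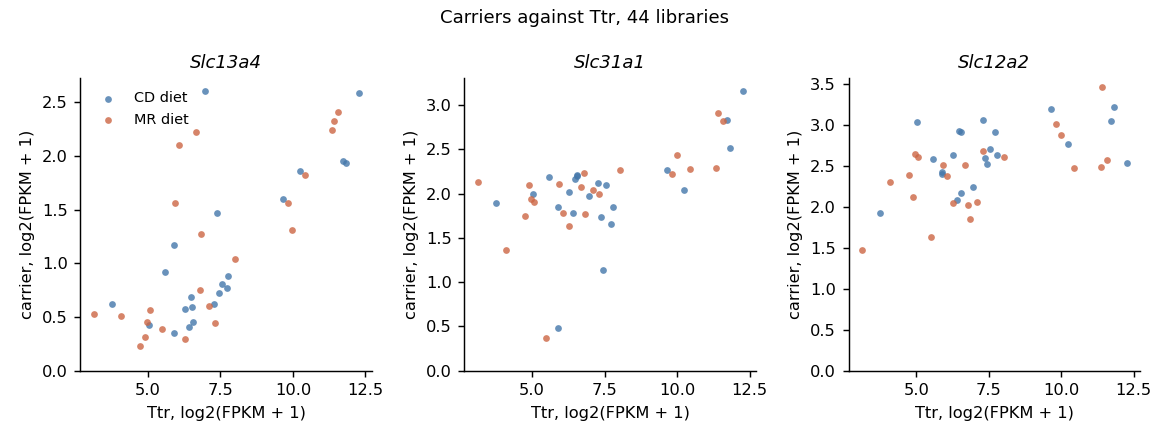
Level of Slc13a4, Slc31a1 and Slc12a2 against Ttr in 44 libraries, both as log2(FPKM + 1), coloured by diet. All 11 libraries with high Ttr have Slc13a4 of at least 1.48 FPKM, and several libraries with low Ttr reach similar levels.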

How the data were processed

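The authors deposited 1 table of FPKM per locus and library, the unit of every value used here. Per the submitters' processing notes, reads were trimmed with Trimmomatic 0.38, and HISAT2, StringTie 1.3.4d and the build GRCm38.p6 were used. Counting, strand handling and annotation are not given in the sources used here, and the depth is unknown. From these FPKM, log2(FPKM + 1) was fitted with limma 3.58.1 in R 4.3.3 (1 mean per group, empirical Bayes with trend, 38 residual degrees of freedom). Loci entered where 6 or more libraries reached 1 FPKM, 13009 of 13218, all 133 carriers among them. P-values were adjusted by Benjamini-Hochberg over all loci tested, with a threshold of 0.05. Slopes on Ttr and on the share of FPKM in loci without a symbol were fitted within groups. Differences are on the log2(FPKM + 1) scale and understate changes of low genes. In each comparison up to 10 carriers per direction were to be named by smallest p, or 3 where none passed, beside the members of the lists. Members and lists were chosen with earlier results of these data known. Positions are from GENCODE M21 by symbol. Alternatives covered the pseudocount, filter, normalization, samples fitted, lane, replicate number, array weights, covariates and each library left out. The fit was tested on simulated data. Some carriers that the rule names are not reported here, though counts over carriers include them.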

Additional observations from a re-analysis of the deposited data

Results flagged for a closer look

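Among 19 carriers described by sample, 14 of 114 groups had 1 library far from the others by Dixon's test. For independent groups of normal values chance gives about 1 in 20. The test was run on FPKM without logs, and the carriers share their libraries. Slc13a4, Slc31a1 and Slc12a2 were also described because they followed Ttr, so the excess over 1 in 20 cannot be read as a result. Library 2 of 5M-CD was the highest of its group for Slc7a8 (29.1 FPKM), Slc6a8 (19.0 FPKM) and Slc6a6 (19.2 FPKM). Library 8 of 15M-MR was the highest for Slc6a6 (13.3 FPKM), and library 8 of 15M-CD for Slc7a8 (21.9 FPKM). Slc19a2 was highest in library 8 of 18M-MR at 2.71 FPKM. Library 10 of 5M-CD stood high for Slc13a4 (5.00 FPKM) and Slc31a1 (7.94 FPKM), library 6 of 18M-MR for Slc13a4 (3.73 FPKM), library 2 of 15M-CD for Slc31a1 (6.11 FPKM) and library 6 of 5M-MR for Slc12a2 (10.1 FPKM). Slc31a1 was lowest in library 3 of 15M-MR at 0.296 FPKM. Slc27a3 was lowest in library 4 of 5M-MR at 1.82 FPKM and was listed at 0 in library 3 of 15M-CD.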

How the results depend on the processing

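Depth is unknown, lanes are uneven over groups, and age differences in MR differed by transcript length. Counts of called carriers depended on the setting, and the cause was not tested. No named difference changed sign among called values. With array weights, carriers called numbered 7 for diet at 5 months, 2 for a diet difference changing with age, 3 and 15 for 15 and 18 against 5 months in CD, 47 for 15 against 5 months in MR, 45 averaged over diets, 2 for 18 against 15 months and 58 for any difference. Over all loci array weights called 3.12%, 0.177%, 1.77%, 13%, 36.2%, 34.9%, 2.66% and 42.7% in that order. With lane they numbered 0 for 15 against 5 months in MR, 6 averaged over diets and 1 for 18 against 15 months in CD. Of 13009 loci, 14, 193 and 8 were called in these comparisons with lane. With the share without a symbol as a covariate they numbered 1 at 18 against 5 months in CD, 8 and 0 at 15 and 18 against 5 months in MR, 12 and 5 averaged over diets, and 4 for any difference. The loci called numbered 136 in CD, 1045 and 25 in MR, and 1773 and 160 averaged. Without the 6 libraries above 8% they numbered 1 in CD and 0 in MR at 18 against 5 months, 16 averaged, 0 at 18 against 15 months and 14 for any difference. Loci called there numbered 36 in CD, 23 in MR, 625 averaged and 31 at 18 against 15 months. With the length trend removed they numbered 2 at 18 against 5 months in CD, 11 at both ages in MR, 9 and 16 averaged, 9 for any difference and 6 on Ttr. Of the 8705 loci with a length, 77 were called in CD, 580 and 607 in MR, 854 and 1104 averaged and 250 on Ttr. The last 2 settings were chosen after seeing the data. With a filter at 5 FPKM they numbered 1 at 18 against 5 months in CD, 16 at 15 against 5 months in MR, 0 at 18 against 15 months and 1 on Ttr. Of the 8610 loci that passed this filter, 47, 1390, 27 and 44 were called in that order. Of the 65 carriers of at least 5 FPKM, 15 were called at 15 against 5 months in MR and 0 at 18 against 15 months. On Ttr 1 was called and on the share 29. The main fits called 2387, 52, 69 and 6430 of 13009 loci in that order. Fitting only the groups compared gave 11 at 18 against 5 months in MR, 35 at 15 against 5 months averaged and 0 at 18 against 15 months. That fit called 339, 3824 and 32 of 13009 loci in that order. A pseudocount of 0.1 and quantile normalization each gave 0 at 18 against 15 months, and Ttr as a covariate gave 1 at 18 against 5 months in CD. These called 47, 46 and 30 of 13009 loci. Under settings other than array weights, the loci called for any difference are not given here.

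The carriers' median moved too. With lane it was 0.00102 for diet at 15 months, -0.30 and 0.0608 at 15 against 5 and 18 against 15 months in CD, -0.41 and -0.64 at 15 and 18 against 5 months in MR, and -0.32, -0.44 and -0.0357 at 15 against 5, 18 against 5 and 18 against 15 months averaged. With the length trend removed it was 0.0575 for diet at 5 months, -0.0449 and -0.0672 at 15 and 18 against 5 months in CD, -0.0934 and -0.20 in MR, and -0.0595, -0.15 and -0.0441 averaged. With the share covariate it was -0.16 and -0.32 in MR and -0.13 and -0.21 averaged. Without the libraries above 8% it was -0.31 and -0.0264 at 18 against 5 and 15 months in MR and -0.0444 at 18 against 15 months averaged. With a pseudocount of 0.1 it was -0.17 at 15 against 5 months in CD.

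With 1 library left out at a time, carriers called at 15 against 5 months averaged ranged from 15 (without 5M-CD 2) to 26. In MR they ranged from 17 to 27. At 18 against 5 months they were 37 to 59 averaged and 24 (without 18M-MR 2) to 58 in MR. In CD they were 0 to 2. At 18 against 15 months averaged the range was 0 to 2. For any difference it was 13 (without 5M-MR 6) to 39 (without 18M-MR 4). On Ttr it was 2 to 4 and on the share 39 to 51. The share of all loci called in these fits is not given here, so the ranges do not describe carriers apart from other loci.

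With the replicate number as a block, carriers called numbered 11 and 30 at 15 and 18 against 5 months averaged, 0 at 18 against 15 months and 4 for any difference. Of 13009 loci, 1074 and 2265 were called averaged and 27 at 18 against 15 months. Over 81 pairs with the same number the median correlation of deviations was 0.016, beside 0.004 over 724 other pairs, and 4 libraries correlated best with their own number, so the numbers were not taken as pairs.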
